A study of Mus musculus with 6 samples.

Results

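The genes described here are 10 core components of Notch signalling: the receptors Notch1, Notch2, Notch3 and Notch4, the ligands Jag1, Jag2, Dll1 and Dll4, and the target genes Hes1 and Hey1. They were picked by gene symbol out of 23420 genes in each count file, and all 10 were found and passed the filter on low counts, as did 16604 genes in all. RNA was sequenced from the part of the embryonic mouse palate that later forms the front of the bony roof of the mouth, dissected from C57BL/6 embryos at E14.5, with 3 libraries for each of 2 genotypes. Both genotypes carried Cre in 1 Shox2 allele and floxed Nkx2-5 on both chromosomes. The control (Shox2Cre/+;Nkx2.5F/F) kept a wild-type second Shox2 allele, and the mutant (Shox2Cre/-;Nkx2.5F/F) had a null allele there. The control, titled WT by the submitters, is therefore heterozygous for Shox2 and carries the floxed gene too, and Cre acts only where Shox2 is active. The sources used here do not say how many embryos went into a library, so p-values measure the spread between libraries, which may be technical.

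Notch receptors are membrane proteins that are cut when a ligand on a neighbouring cell binds them. The freed intracellular part enters the nucleus, joins the DNA-binding protein RBPJ and a Mastermind coactivator, and switches on repressor genes of the Hes and Hey families. In the developing palate, Jag2 acts in the oral epithelium and is needed to keep the shelves from fusing to the tongue too early, and Notch signalling also patterns blood vessels, supports mural cells and restrains bone-forming cells.

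Total counts were 81950407 to 134813429 in the controls and 52668242 to 53331397 in the mutants, so every control was sequenced more deeply than every mutant, and depth and genotype cannot be told apart. Shox2 itself had a level of 88.2, 68.2 and 81.7 CPM across control replicates 1, 2 and 3, against 5.30, 4.12 and 3.13 CPM across mutant replicates 1, 2 and 3 (CPM are counts scaled to a common library size with TMM factors), whereas Nkx2-5 had at most 8 counts in any library. A set of 7 palatal mesenchyme genes summed to 6377 to 14998 CPM in the controls and 9874 to 11486 CPM in the mutants, and all 7 had counts in every library. Most of each sum came from the collagens Col1a1 and Col1a2, which are not particular to this tissue. Control replicate 1 had the lowest sum, with Col1a1 at 1857 CPM against 6328 and 5140 CPM in the other controls. Col1a2, Pdgfra and Prrx1 were also lowest there among the controls. Osr2 (146 against 86.2 and 107 CPM), Msx1 (117 against 88.3 and 98.6 CPM) and Twist1 were highest there. Control replicate 1 also had the lowest sum of 9 osteoblast genes among the controls, at 970 CPM against 3459 and 2994 CPM. In mutant replicate 1, 99.7% of counts from 5 to 50 were even numbers, against 63.6% to 73.0% in the others. Values below are given without these 2 libraries wherever a call among the 10 genes then changed.

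In GENCODE M21, on the mouse build GRCm38, the receptor genes were Notch1 on chromosome 2 from 26457903 to 26516663 (minus strand), Notch2 on chromosome 3 from 98013527 to 98150361 (plus strand), Notch3 on chromosome 17 from 32120820 to 32166852 (minus strand) and Notch4 on chromosome 17 from 34564268 to 34588503 (plus strand). The ligand genes were Jag1 on chromosome 2 from 137081456 to 137116644 (minus strand), Jag2 on chromosome 12 from 112907819 to 112929776 (minus strand), Dll1 on chromosome 17 from 15367354 to 15376872 (minus strand) and Dll4 on chromosome 2 from 119325784 to 119335962 (plus strand). The target genes were Hes1 on chromosome 16 from 30064384 to 30067796 (plus strand) and Hey1 on chromosome 3 from 8663359 to 8667256 (minus strand). Noncoding genes on the opposite strand shared exon bases with 4 of the 10, covering 7.5% and 2.91% of the exon bases of Notch1, 6.03% of those of Notch3, 20.5% of those of Dll1 and 5.56% of those of Dll4. On the same strand, the unclassified gene Gm42820 shared 5.02% of the exon bases of Notch2. How strand was treated in counting is not stated, so reads from the shared bases cannot be told apart. Of these partners, Gm14207, that of Dll4, has counts of its own in the files, at 0.350 ± 0.0382 CPM in the controls and 0.381 ± 0.132 CPM in the mutants, far below Dll4.

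Of the 10 genes, 5 rose in the mutant palate, 1 fell and 4 did not pass the test (edgeR quasi-likelihood test, adjusted p under 0.05 over all tested genes). The 5 that rose were Notch1, Notch2, Notch3, Jag1 and Jag2, and the 1 that fell was Hey1. Calls were common in this comparison: 45.8% of the tested genes passed, 24.1% higher and 21.7% lower in the mutant, so a count of 5 rises and 1 fall is to be read against that background. The median log2 fold change of the 10 genes was 0.29, beside a median of -0.00433 over all tested genes. In 6 of the 10 the mutants all lay above the controls, and in 1 they all lay below. Such separation was seen upward in 29.7% and downward in 29.2% of tested genes. Without both replicates 1, 6 of the 10 rose and 1 fell. When a change was tested against a 1.5-fold threshold rather than against no change, Notch1 alone of the 10 was called.

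**Figure D1:**
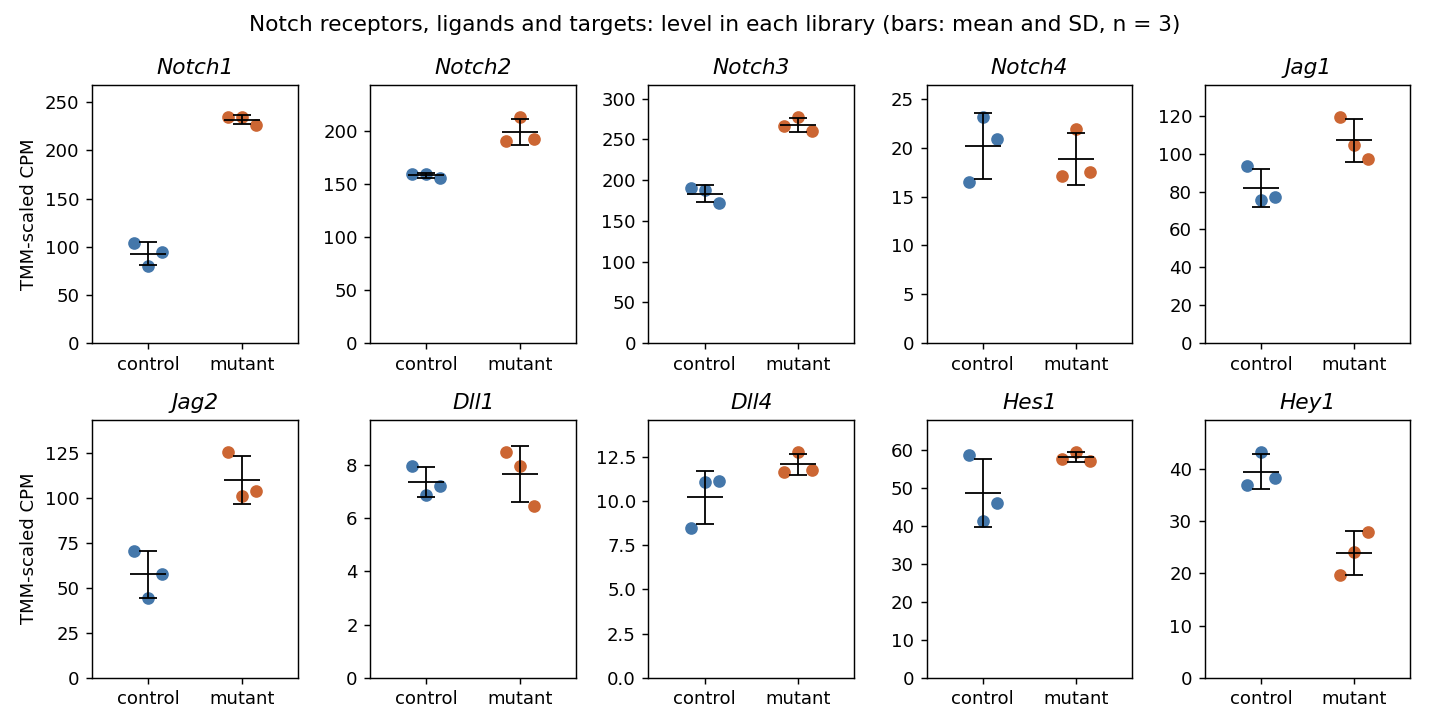
TMM-scaled CPM (vertical axes, each from 0) of the 10 genes in the 3 control and 3 mutant libraries. Points are libraries and bars give the mean and SD; all mutant points lie above all control points for Notch1, Notch2, Notch3, Jag1, Jag2 and Dll4, and below them for Hey1.

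Notch1, a receptor of many progenitor cells and of epithelium and endothelium, showed the largest change of the 10. In control replicates 1 to 3 it stood at 103, 79.7 and 94.0 CPM, and in mutant replicates 1 to 3 at 234, 235 and 226 CPM; values of the other genes follow the same order. The lowest mutant was thus more than double the highest control, and the mutants were closer to each other than the controls were. The mean rose to 232 ± 4.69 CPM from 92.4 ± 11.9 CPM in the controls (SD, n = 3 each), a 2.51-fold difference (log2 change 1.33 with SE 0.10, adjusted p = 0.000234 by edgeR). This call held under every one of the 20 alternative settings, with log2 fold changes from 1.12 to 1.40.

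Notch3, the receptor best known from pericytes and vascular smooth muscle, had 191, 188 and 171 CPM in the controls and 267, 277 and 260 CPM in the mutants. Its groups lay well apart, with small spread in both. The mean rose 1.46-fold, from 183 ± 10.5 to 268 ± 8.73 CPM (log2 change 0.55 with SE 0.07, adjusted p = 0.00102 by edgeR). Notch2, a broadly expressed receptor, moved least of the 3 that rose. Its levels were 159, 159 and 155 CPM in the controls and 191, 213 and 193 CPM in the mutants, a 1.26-fold rise (log2 change 0.33 with SE 0.07, adjusted p = 0.00632 by edgeR). With an uncentred correction for GC content and gene length, which shifted the median of all genes by -0.21, Notch2 was not called (0.09, adjusted p = 0.307).

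Notch4, a receptor largely restricted to endothelium, was not called. It had 16.5, 23.2 and 20.9 CPM in the controls and 17.1, 22.0 and 17.6 CPM in the mutants, and the groups overlapped fully. Its log2 fold change was -0.10 (SE 0.16, adjusted p = 0.651 by edgeR), and the sign turned under 4 of the 20 alternatives.

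The jagged-type ligands were higher in the mutant and the delta-type ligands did not pass. Jag2, the ligand of oral epithelium, had 70.5, 44.5 and 57.8 CPM in the controls and 126, 101 and 104 CPM in the mutants. Every mutant was above every control, although the controls themselves ranged from 44.5 to 70.5 CPM. The mean rose 1.92-fold, from 57.6 ± 13.0 to 110 ± 13.5 CPM (log2 change 0.94 with SE 0.17, adjusted p = 0.00404 by edgeR). Jag1, expressed in mesenchyme, epithelium and vessel walls, had 93.4, 75.3 and 77.0 CPM in the controls and 119, 105 and 97.1 CPM in the mutants. The highest control and the lowest mutant were close to each other. The rise was 1.31-fold (log2 change 0.39 with SE 0.11, adjusted p = 0.0254 by edgeR). Jag1 lost its call without control replicate 2 (adjusted p = 0.0837), control replicate 3 (0.0869), mutant replicate 1 (0.0651) or mutant replicate 2 (0.0639), with the uncentred GC and length correction (0.245) and with the level of Y-linked genes as a covariate for embryo sex (0.228).

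Dll4, the ligand of arterial and sprouting endothelium, had 8.50, 11.1 and 11.1 CPM in the controls and 11.7, 12.8 and 11.8 CPM in the mutants. The groups did not overlap, but the gap between them was narrow and the gene did not pass (log2 change 0.24 with SE 0.15, adjusted p = 0.224 by edgeR). Dll1, a ligand of neural, somite and muscle progenitors, was the lowest of the 10 throughout. It had 7.98, 6.88 and 7.24 CPM in the controls and 8.50, 7.99 and 6.48 CPM in the mutants, with overlapping groups (log2 change 0.06 with SE 0.16, adjusted p = 0.796 by edgeR).

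Hes1 and Hey1 are both repressors of the basic helix-loop-helix type, and of the pair Hey1 was called. Hes1 had 58.5, 41.3 and 46.0 CPM in the controls and 57.7, 59.4 and 57.1 CPM in the mutants. Control replicate 1 lay at the level of the mutants and the other controls lay below it. The log2 fold change was 0.26 (SE 0.13, adjusted p = 0.135 by edgeR), and without control replicate 1 Hes1 was called higher (0.40, adjusted p = 0.00718). Hey1 had 37.0, 43.3 and 38.3 CPM in the controls and 19.7, 24.2 and 27.9 CPM in the mutants. All mutants lay below all controls. The mean fell to 23.9 ± 4.13 CPM from 39.5 ± 3.33 CPM in the controls, 1.65-fold lower (log2 change -0.72 with SE 0.14, adjusted p = 0.00506 by edgeR). With the Y-linked covariate Hey1 was just short of the threshold (-0.60, adjusted p = 0.0507), and over the 20 alternatives its log2 fold change lay between -1.04 and -0.60.

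**Figure D2:**
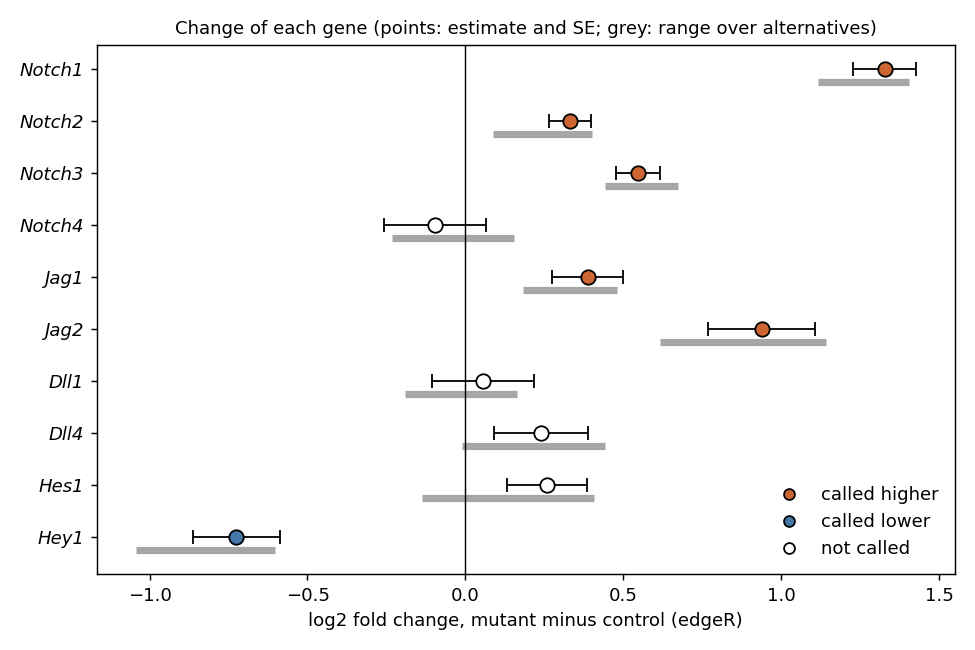
Log2 fold change of each gene, mutant minus control, from the edgeR fit (points with SE) and, as a grey bar beneath, its lowest to highest value over the 20 alternative settings. Notch1, Jag2, Notch3, Jag1, Notch2 and Hey1 were called and have grey bars on 1 side of 0, whereas the bars of Notch4, Dll1, Dll4 and Hes1 cross it.

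The ratio of 2 genes within a library does not depend on how libraries are scaled, so a set of 12 ratios was compared (among them Jag1 to Jag2 and its inverse). With 3 libraries against 3 the exact two-sided permutation test cannot go below p = 0.1, which becomes 0.109 after adjustment over the 12. The Hes1 to Hey1 ratio was 1.58, 0.953 and 1.20 in the controls and 2.93, 2.46 and 2.04 in the mutants. It was 2.01-fold higher in the mutant without overlap (exact permutation p = 0.1). The Notch1 to Notch2 ratio went from 0.651, 0.500 and 0.605 to 1.23, 1.10 and 1.18, also 2.01-fold higher (exact permutation p = 0.1). Notch1 counts thus passed from below those of Notch2 to above them in every mutant library. The Notch1 to Notch3 ratio was 1.72-fold higher and the Jag2 to Jag1 ratio 1.48-fold higher in the mutant, again without overlap and at the same p. Jag2 moved from 0.590 to 0.755 of Jag1 in the controls to 0.967 to 1.07 in the mutants. The Hes1 to Hes5 ratio, 77.1 to 125 in the controls and 153 to 529 in the mutants, rests on a few reads of Hes5 in each mutant.

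To compare levels between genes, CPM was divided by the length of all annotated exons of the gene in kb. In the controls Hes1 (23.9 ± 4.38 CPM per kb) and Notch3 (22.7 ± 1.30) stood highest and did not differ beyond their spread. Notch2 (14.7), Jag1 (14.1) and Hey1 (12.1) came next, each overlapping its neighbour in the order, and then Jag2 (8.27) and Notch1 (6.49), which overlapped too. Dll4 (2.66) and Notch4 (2.50), not separable from each other, and Dll1 (1.75) were lowest. In the mutants Notch3 (33.1) led, followed by Hes1 (28.5), then by Notch2 (18.4) and Jag1 (18.4), which could not be ordered, then by Notch1 (16.3) and Jag2 (15.8), which could not be ordered either. Hey1 (7.33) had dropped below all of these, and Dll4 (3.14), Notch4 (2.34) and Dll1 (1.81) remained lowest. The exon length of Notch1 is 14.232 kb when all isoforms are joined but 9.488 kb for its longest coding transcript. With the longest coding transcript as the length, an alternative chosen after the data were seen, Notch1 stood at 9.74 CPM per kb in the controls and 24.4 in the mutants, where it ranked above Notch2 (18.9). Hes1 then led in both groups (33.1 and 39.5) and Notch3 came after it, so the order of these 2 in the mutants rests on the length used.

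Summed over the 4 receptors, the level was 44.8 to 47.7 CPM per kb in the controls and 68.1 to 73.2 in the mutants. Notch1 made up 15.2%, 12.1% and 14.8% of the receptor transcripts in the controls and 23.8%, 22.5% and 23.4% in the mutants. All shares here use the length of all annotated exons. They rest on that length, and shares with the longest coding transcript were not computed. Notch3 held the largest share in every library (48.9% ± 1.43 in the controls and 47.2% ± 0.396 in the mutants), while Notch2 went from 31.6% ± 0.639 to 26.2% ± 0.714 and Notch4 from 5.42% ± 0.987 to 3.33% ± 0.348. The 4 ligands summed to 23.8 to 30.2 CPM per kb in the controls and 36.2 to 43.6 in the mutants. Jag1 and Jag2 together outweighed Dll1 and Dll4 in every library, and the share of Jag2 went from 30.7% ± 3.46 to 40.4% ± 1.61.

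**Figure D3:**
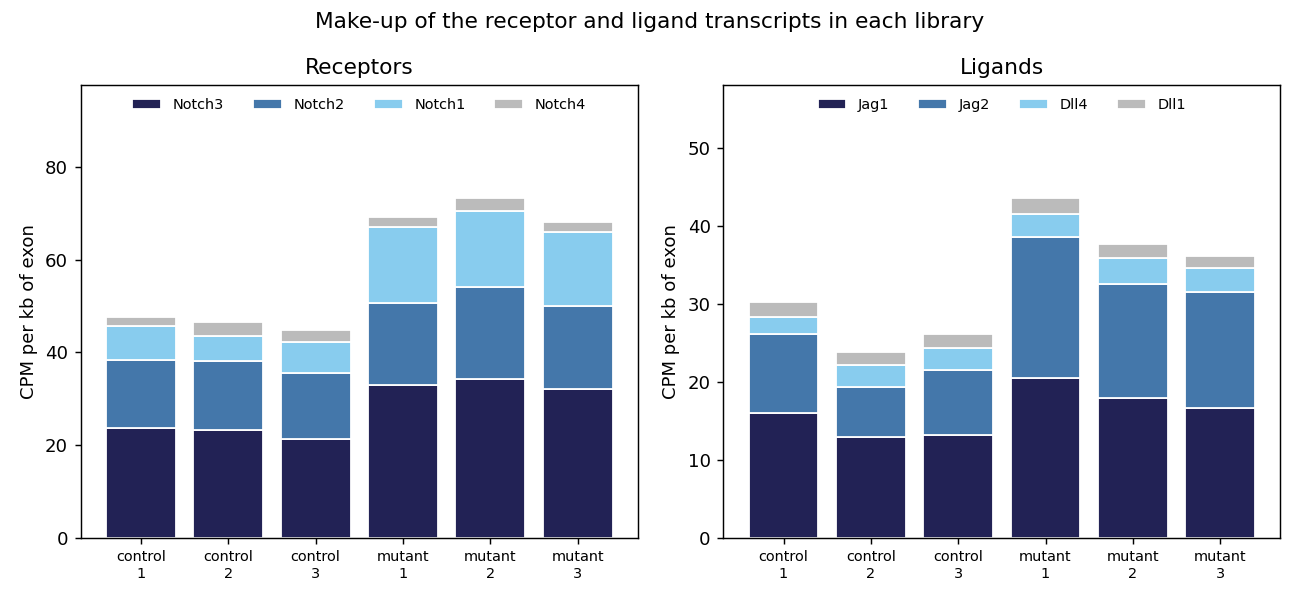
Stacked bars of CPM per kb of all annotated exons for the 4 receptors (left) and the 4 ligands (right) in each library. The mutant bars are taller than every control bar, and the Notch1 and Jag2 segments take a larger share of them.

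The wider pathway was described with a list of 70 genes ordered by role, all of them in the files (1, Xxylt1, under the older symbol AI480653) and all tested. Of these, 23 rose, 7 fell and 40 did not pass, with a median log2 fold change of 0.05. Without the 10 genes above, 18 of 60 rose and 6 fell, with a median of 0.02. The rises were 32.9% of the 70 genes, beside 24.1% of all tested genes, and the 7 falls stand beside 21.7% of all tested genes. The counts were 14 higher and 4 lower without control replicate 2 or control replicate 3, 15 and 4 without mutant replicate 2, and 27 and 14 without both replicates 1, where 4595 and 4509 of all genes were called. With the uncentred GC and length correction the split turned to 9 higher and 19 lower, as that over all 16604 genes turned to 3007 higher and 6269 lower, and with the correction centred it was again 23 and 7.

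Of 10 cleavage enzymes, the proteases that cut Notch, 6 rose (60%, beside 24.1% of all tested genes) and 4 did not pass. This count dropped to 3 without control replicate 2, control replicate 3 or mutant replicate 2, with the replicate block and with the Y-linked covariate. With the uncentred GC and length correction none of the 6 was called higher and 2 genes of the list were called lower. Nicastrin (Ncstn), a gamma-secretase subunit that binds the substrate, rose to 126 ± 10.5 CPM from 90.3 ± 8.08 CPM in the controls (log2 change 0.48 with SE 0.09, adjusted p = 0.00516 by edgeR). Furin, which cuts the receptor on its way to the cell surface, rose by 0.45 (SE 0.09), and Psen2, a catalytic subunit of gamma-secretase, by 0.60 (SE 0.13). With that correction Ncstn, Furin and Psen2 had adjusted p of 0.0718, 0.0507 and 0.0613. The gamma-secretase subunit Aph1a was not called (log2 change -0.12 with SE 0.16).

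Of 9 sugar transferases, which decorate the extracellular part of Notch and tune its response to ligands, 2 rose, 1 fell and 6 did not pass. The 22.2% that rose is near the 24.1% of all tested genes, and 11.1% fell beside 21.7%. Eogt, which adds N-acetylglucosamine, rose to 39.5 ± 1.06 CPM from 22.4 ± 1.49 CPM in the controls (log2 change 0.82 with SE 0.08, adjusted p = 0.000492 by edgeR). Lfng, lunatic fringe, rose to 34.7 ± 2.10 CPM from 22.8 ± 1.66 CPM in the controls (log2 change 0.61 with SE 0.09, adjusted p = 0.00218 by edgeR). Fringe enzymes change which ligands a Notch receptor answers to. Gxylt1, a xylosyltransferase, fell to 76.5 ± 7.33 CPM from 116 ± 12.0 CPM in the controls (log2 change -0.61 with SE 0.10, adjusted p = 0.00322 by edgeR). Pofut1, which adds the fucose that fringe extends, was not called (log2 change -0.14 with SE 0.07). Without both replicates 1, 5 genes of this list fell.

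Among 12 genes of ubiquitin ligases and trafficking, 4 rose, 1 fell and 7 did not pass. Its shares of 33.3% higher and 8.33% lower stand beside 24.1% and 21.7% of all tested genes. Neurl1a, a ligase that acts on Notch ligands, rose to 32.1 ± 2.96 CPM from 16.8 ± 0.546 CPM in the controls (log2 change 0.93 with SE 0.10, adjusted p = 0.000568 by edgeR). The deltex genes Dtx1 (0.58, SE 0.10) and Dtx2 (0.52, SE 0.09), regulators of receptor trafficking, rose as well, and Dtx3 did not pass (0.18, SE 0.09). These 3 rises kept their call under all alternatives that asked for any change, that is all but the 1.5-fold threshold, which Neurl1a passed. Without control replicate 1, 3 genes of this list fell.

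In the nuclear complex 2 of 9 rose (22.2%, near the 24.1% of all tested genes), 1 fell (11.1%, beside 21.7%) and 6 did not pass. The coactivator Maml2 (0.24, SE 0.08) and the acetyltransferase Ep300 (0.30, SE 0.09) rose, and neither was called without control replicate 2, control replicate 3, mutant replicate 2 or mutant replicate 3, the first also not without control replicate 1. Both calls were lost as well with the replicate block (adjusted p = 0.0610 and 0.0744), the uncentred GC and length correction (0.435 and 0.335) and the Y-linked covariate (0.0927 and 0.298). Snw1, a cofactor of the RBPJ complex that also acts in splicing, fell to 102 ± 5.62 CPM from 138 ± 1.33 CPM in the controls (log2 change -0.43 with SE 0.06, adjusted p = 0.00183 by edgeR), and Maml1 did not pass (-0.13, SE 0.07). Of 11 corepressors, 1 rose (9.09%, beside 24.1% of all tested genes), 2 fell (18.2%, beside 21.7%) and 8 did not pass. Hdac1, a histone deacetylase, fell to 110 ± 4.55 CPM from 158 ± 10.9 CPM in the controls (log2 change -0.53 with SE 0.07, adjusted p = 0.00140 by edgeR). The groucho gene Tle2 had a called log2 fold change of -0.33 (SE 0.11), which was lost under 11 alternatives besides the 1.5-fold threshold, and Aes, a short groucho relative, did not pass (-0.00147, SE 0.07).

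Beyond Jag1, Jag2, Dll1 and Dll4, the list held Dll3, a delta protein that does not activate Notch on neighbouring cells. Dll3 averaged 0.563 ± 0.237 CPM in the controls and 0.234 ± 0.150 CPM in the mutants and did not pass (adjusted p = 0.143). Of 3 other ligand-like genes 2 rose and 1 fell, where 24.1% and 21.7% of all tested genes did. Dlk2 rose to 17.3 ± 3.72 CPM from 10.4 ± 1.93 CPM in the controls (log2 change 0.73 with SE 0.20) and Dlk1, a noncanonical ligand and imprinted growth regulator, from 487 ± 127 to 725 ± 119 CPM (0.57, SE 0.20), while Dner, a gene of neurons, fell to 1.28 ± 0.601 CPM from 2.96 ± 0.583 CPM in the controls (-1.22, SE 0.38). None of these 3 calls held when mutant replicate 1 was left out (adjusted p = 0.0519, 0.131 and 0.0538), and Dlk1 also lost its call with the replicate block (0.0508).

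**Figure D4:**
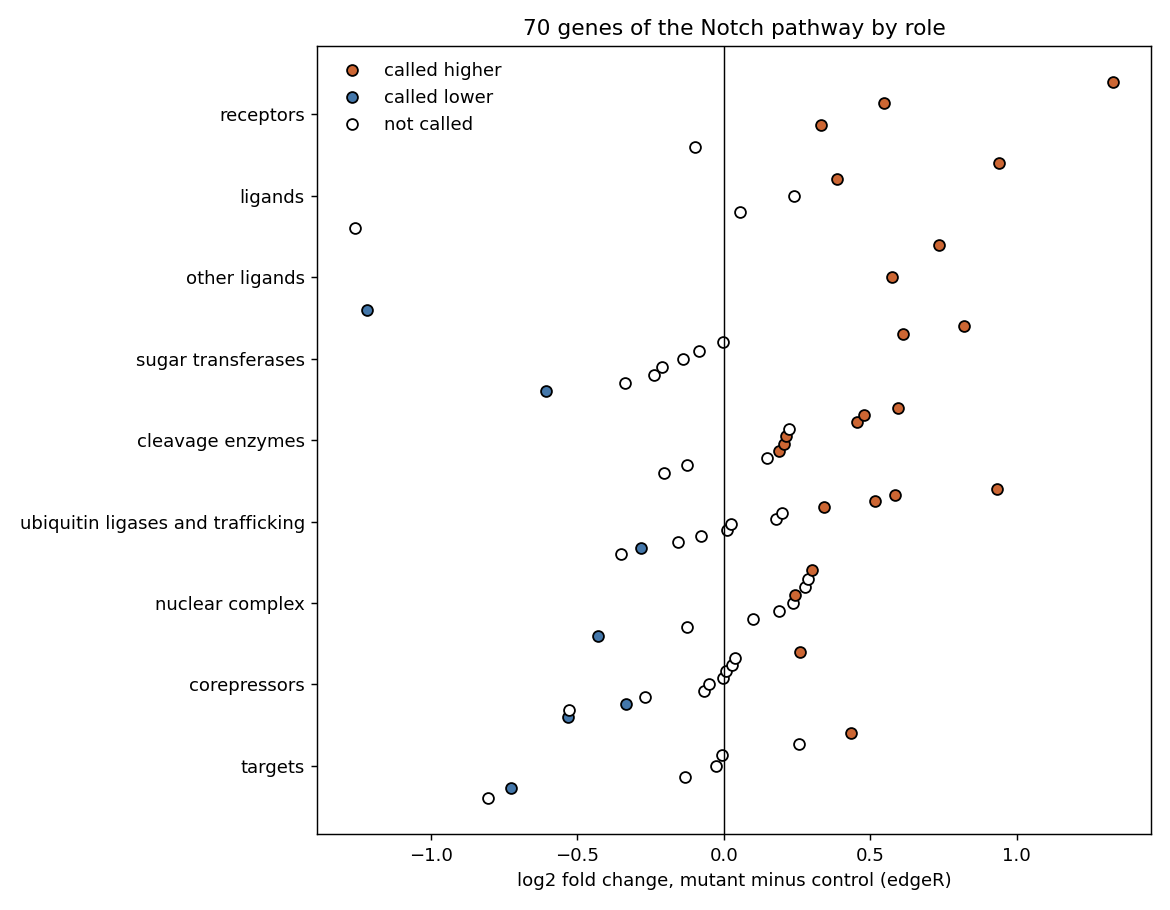
Log2 fold change of the 70 pathway genes (horizontal axis, mutant minus control) by role, 1 point a gene, filled where called. Of all tested genes 24.1% were called higher. That share was exceeded among cleavage enzymes (6 of 10, fewer under several alternatives) and receptors (3 of 4), among other roles. It was not reached by sugar transferases (22.2%), the nuclear complex (22.2%), targets (14.3%) and corepressors (9.09%). The targets lie on both sides of 0.

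Of 7 listed targets, 1 rose, 1 fell and 5 did not pass, with a median log2 fold change of -0.03. These shares of 14.3% each stand beside 24.1% and 21.7% of all tested genes. Nrarp, a target that feeds back to limit Notch signalling, had 25.9, 25.0 and 26.8 CPM in the controls and 30.8, 33.3 and 41.0 CPM in the mutants. It rose without overlap (log2 change 0.44 with SE 0.12, adjusted p = 0.0206 by edgeR), and missed the threshold when control replicate 2 was left out (adjusted p = 0.0680), without mutant replicate 3 (0.0503), with the centred (0.0673) or uncentred (0.665) GC and length correction or with the Y-linked covariate (0.123). Heyl, the target with the highest level among those not called outside the 10 genes, averaged 28.8 ± 7.78 CPM in the controls and 28.3 ± 6.00 CPM in the mutants. Hes5, often used as a readout of Notch activity in neural tissue, was near the limit of detection, at 0.470 to 0.535 CPM in the controls and 0.109 to 0.372 CPM in the mutants (log2 change -0.80 with SE 0.50, adjusted p = 0.228). Hey2, a gene of arteries and heart, had 4.95 to 9.22 CPM in the controls and 5.16 to 8.27 CPM in the mutants.

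RBPJ binds DNA at sites whose common form contains GTGGGAA. These letters, read on both strands (the reverse is TTCCCAC), were looked for in the RefSeq promoters of GRCm38.p6, which run from 250 bases before to 50 bases after a gene's start. They were present in 2097 of 32851 promoters (6.38%). Of the 10 genes, 8 had a promoter in the table and none of these 8 held the letters, and Hes1 and Hey1 were not among the 8. Of the 7 targets 4 had a promoter, and Hes5, Hes7 and Hey2 held the letters while Nrarp did not. The promoters of Hes5 and Hey2, with 2 matches each and no call, and of Nrarp, with no match and the rise given above, are shown with the matching letters in capitals; the 3 were chosen after the values were seen. They lie at chr4:154960673-154960972 on the plus strand (Hes5), chr10:30842734-30843033 on the minus strand (Hey2) and chr2:25180508-25180807 on the plus strand (Nrarp).
Hes5: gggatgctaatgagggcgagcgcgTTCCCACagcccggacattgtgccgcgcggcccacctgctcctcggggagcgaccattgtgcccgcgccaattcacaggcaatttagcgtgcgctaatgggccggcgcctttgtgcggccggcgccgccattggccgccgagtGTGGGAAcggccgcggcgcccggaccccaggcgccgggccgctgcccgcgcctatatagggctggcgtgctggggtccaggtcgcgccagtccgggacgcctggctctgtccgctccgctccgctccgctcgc
Hey2: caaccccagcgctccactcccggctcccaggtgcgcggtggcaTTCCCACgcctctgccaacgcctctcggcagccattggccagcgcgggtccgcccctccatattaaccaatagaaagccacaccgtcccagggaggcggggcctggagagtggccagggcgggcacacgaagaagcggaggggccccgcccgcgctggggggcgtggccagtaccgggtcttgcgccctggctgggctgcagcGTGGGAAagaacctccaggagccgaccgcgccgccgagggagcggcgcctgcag
Nrarp: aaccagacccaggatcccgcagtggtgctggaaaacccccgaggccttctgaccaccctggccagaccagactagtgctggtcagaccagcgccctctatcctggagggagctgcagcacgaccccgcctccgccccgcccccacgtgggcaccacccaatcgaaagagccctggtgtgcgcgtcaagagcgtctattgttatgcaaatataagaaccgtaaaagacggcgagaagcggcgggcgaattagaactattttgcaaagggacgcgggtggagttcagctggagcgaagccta
In Hes5 the matches begin 226 and 83 bases before the start and lie on the reverse and the forward strand in that order. In Hey2 they begin 207 and 4 bases before the start, in the same order of strands, and the latter reaches across the start. A match in letters describes the sequence and shows no binding, and its absence says nothing about other sites outside this window.

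Several cell types that express these genes were measured in the same libraries, and in bulk tissue a change in the number of cells of a type and a change in RNA per cell cannot be told apart. Epithelial genes were far higher in the mutant: all 19 listed markers rose, beside 24.1% of all tested genes. Their sum was 1454 to 2501 CPM in the controls and 7914 to 8915 CPM in the mutants. Krt5, a basal keratin, went from 348 ± 113 to 1720 ± 201 CPM and the desmosome gene Dsp from 351 ± 117 to 1626 ± 94.7 CPM. Set against the epithelial sum, Notch1 and Jag2 were lower rather than higher in the mutant, by 1.61-fold and 2.09-fold, without overlap (exact permutation p = 0.1 for each). All 12 genes of multiciliated cells rose too, with sums of 76.9 to 226 CPM in the controls and 1022 to 1186 CPM in the mutants, led by Foxj1 and Dnahc5. Macrophage genes rose in 11 of 13 cases, from sums of 92.6 to 159 CPM to 374 to 489 CPM, with Mrc1 and Csf1r the highest. The part of these cell types in the rises of Notch1, Notch3 and Jag2 was not tested.

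Most vessel markers did not pass the test, and neither did most genes: of all tested genes 45.8% passed, 24.1% of them all being higher. Of 12 endothelial markers 1 rose (8.33%) and 11 did not pass. The number that rose was 0 without any 1 of the controls, mutant replicate 2 or mutant replicate 3, 3 without mutant replicate 1, 4 without both replicates 1, 3 with the replicate block, and 6 with the block and the centred GC and length correction. The endothelial genes had sums of 592 to 777 CPM in the controls and 681 to 900 CPM in the mutants. Cdh5 (149 ± 21.6 and 185 ± 26.4 CPM) and Kdr (89.5 ± 6.89 and 105 ± 22.9 CPM) were the highest of them and were not called. The ratio of Dll4 to the endothelial sum overlapped between groups, at 0.0142 to 0.0152 in the controls and 0.0142 to 0.0171 in the mutants (exact permutation p = 1). Notch4 was 1.23-fold lower against that sum in the mutant and Hey1 1.92-fold lower, both without overlap (exact permutation p = 0.1). The endothelial sum itself was 1.15-fold higher in the mutant on average. Of 4 arterial genes 2 rose, and the connexins Gja5 and Gja4, the highest of them, did not pass. The arterial sums, which include Bmx (values below), were 35.9 to 46.9 CPM in the controls and 51.0 to 67.4 CPM in the mutants. Of 9 mural genes 1 rose and 8 did not pass (3 rose without control replicate 2, and 4 by DESeq2), with sums of 575 to 644 CPM in the controls and 663 to 779 CPM in the mutants, and the highest, Pdgfrb and Mcam, did not pass. Notch3 was 1.23-fold higher relative to the mural sum, at 0.285 to 0.332 in the controls and 0.342 to 0.393 in the mutants (exact permutation p = 0.1). That ratio leans on Pdgfrb (260 and 278 CPM on average in controls and mutants) and Mcam (131 and 127 CPM). Rgs5 (log2 change 1.06), Abcc9 (0.76), Acta2 (0.72) and Myh11 (0.64) changed more than Notch3 (0.55), Rgs5 alone being called. Cspg4 (0.43), Kcnj8 (0.22), Pdgfrb (0.10), Tagln (0.06) and Mcam (-0.04) changed less.

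The 4 vessel markers that rose are named after their values were seen. Rgs5, a gene of pericytes, rose to 43.5 ± 6.56 CPM from 20.9 ± 3.23 CPM in the controls (log2 change 1.06 with SE 0.15, adjusted p = 0.00162 by edgeR). Bmx, a kinase gene of arterial endothelium and of other cells, rose to 14.7 ± 2.57 CPM from 1.80 ± 0.522 CPM in the controls (log2 change 3.03 with SE 0.27, adjusted p = 0.000346 by edgeR), and Sox17, an arterial transcription factor, to 9.35 ± 1.07 CPM from 5.97 ± 0.739 CPM (log2 change 0.65 with SE 0.17, adjusted p = 0.0163 by edgeR). Robo4, an endothelial guidance receptor, rose to 22.1 ± 2.12 CPM from 17.0 ± 1.63 CPM in the controls (log2 change 0.38 with SE 0.12, adjusted p = 0.0380 by edgeR).

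Bone, nerve and muscle genes, where called, were lower in the mutant. The share called lower over all tested genes was 21.7%. All 8 tested osteoblast markers fell (5 without control replicate 2 and 4 without mutant replicate 2), from sums of 970 to 3459 CPM to 412 to 531 CPM, with Ibsp (1313 ± 898 to 28.9 ± 27.5 CPM) the highest, and the ninth, Bglap, had too few counts to be tested. Of 10 genes of neurons and glia 5 fell, with Tubb3 (38.9 ± 16.3 to 5.09 ± 0.390 CPM) and Stmn2 the highest. Of 9 muscle genes, 8 could be tested and 4 fell (6 without control replicate 2 and 2 without mutant replicate 2 or 3). Of its highest genes Myh3 fell and Des was not called. Myf5, at 0 in all mutants, was the 1 marker of all lists with no counts in a whole group. Of the 7 mesenchyme genes 3 fell, and Col1a1 and Col1a2, the highest, did not pass. The osteoblast sums were 970, 3459 and 2994 CPM in control replicates 1 to 3 and 412, 481 and 531 CPM in mutant replicates 1 to 3. Hey1, at 37.0, 43.3 and 38.3 CPM and at 19.7, 24.2 and 27.9 CPM in the same libraries, had the same order as these sums over all 6. The part of these tissues in the fall of Hey1 was not tested.

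**Figure D5:**
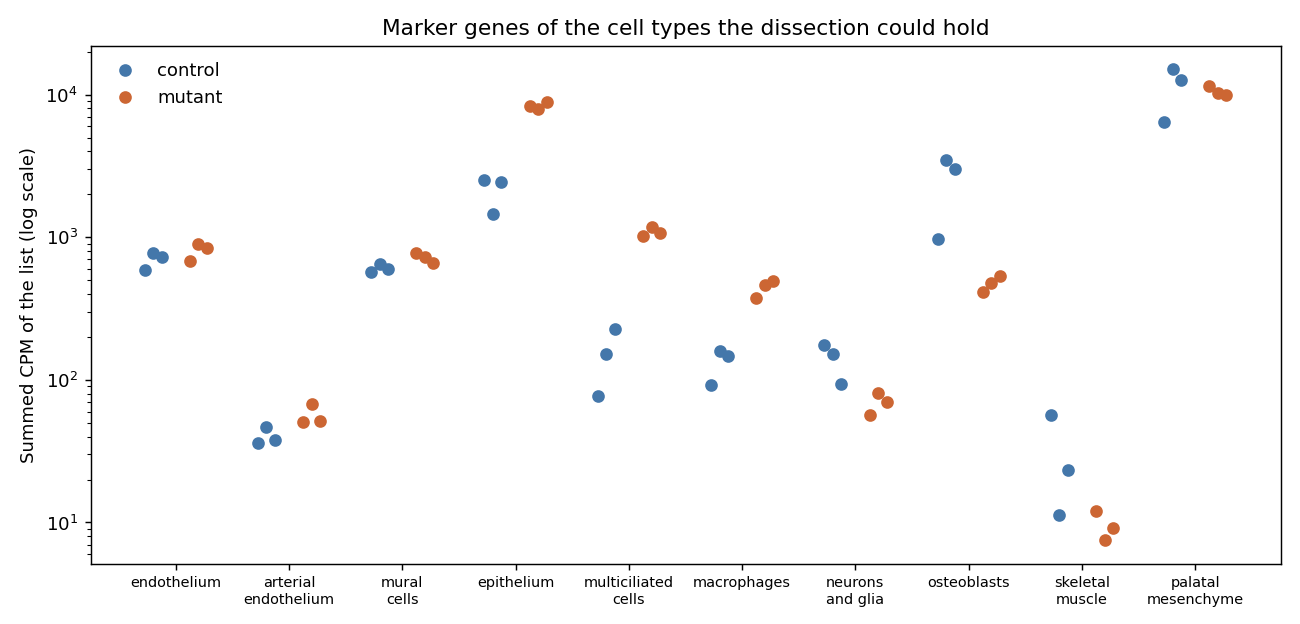
Summed CPM (log scale) of marker genes of 10 cell types in each library, controls and mutants side by side. Epithelial, multiciliated, macrophage, arterial and mural sums are higher in every mutant than in any control. The arterial sums include Bmx, at 1.20 to 2.13 CPM in the controls and 12.2 to 17.3 CPM in the mutants. Of the other arterial genes Sox17 was higher without overlap, and Gja4 and Gja5 overlapped between groups. Osteoblast and nerve sums are lower, and endothelial, muscle and mesenchyme sums overlap.

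For 4 of the genes the 3 tested genes nearest in pattern were found among 12997 genes with an average log2 CPM of at least 1, by the root mean square difference of log2 CPM centred over the 6 libraries. Nearest to Notch1 were Cx3cl1 (0.0553), Abca2 (0.0687) and Sik1 (0.0714), and 11 genes lay within 0.1. Nearest to Hey1 were Rmdn2 (0.0359), Cdr2 (0.0397) and Cdv3 (0.0457), with 44 genes within 0.1. Jag1 had St5 (0.0304), Vegfa (0.0353) and D14Abb1e (0.0462) nearest, with 111 genes within 0.1, and Hes1 had Mcf2l (0.0393), Heca (0.0422) and Nbea (0.0426), with 124. Notch1 thus had the fewest close neighbours of the 4, and these distances describe 6 libraries that share depth and genotype differences.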

How the data were processed

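The authors deposited raw counts by gene symbol for each library, as whole numbers. HISAT2 and StringTie and the builds mm9 and mm10 are named per the submitters' processing notes, and HISAT2 in some columns per the file headers; not given in the sources used here are the read counter, gene models and use of strand. The whole table was fitted with edgeR 4.0.16 in R 4.3.3: filterByExpr by group, TMM scaling, quasi-likelihood F test without covariates, Benjamini-Hochberg adjustment over 16604 genes, threshold 0.05. SE was computed from the log2 change and its F value (the change over the root of F). The fit was tested on simulated counts. Log2 CPM used a prior count of 2. Gene lengths and GC content came from GENCODE M21 (GRCm38), with 98.5% of symbols matched. Of 174 listed genes 6 carry an older symbol in the files. Replicates of a group differed beyond sampling noise (chi-square per degree of freedom at least 15.7).

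Named genes are the 10 genes, per role list up to 3 called genes with the smallest p and the highest gene not called, per marker list the 2 highest genes, and the nearest patterns; others were chosen after their values were seen. A few genes chosen by this rule were left out and are not reported here. Members and lists were chosen with earlier results of these data known. Alternatives were DESeq2 1.42.0, limma-voom (limma 3.58.1), other scalings and filters, a 1.5-fold threshold, left-out libraries, a replicate block, GC and length offsets, a Y-linked covariate and halved counts.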

Additional observations from a re-analysis of the deposited data

How the results depend on the processing

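Over 20 alternatives the number of the 10 genes that rose stayed between 3 and 6 except with the 1.5-fold threshold, where 1 rose and 0 fell. With the uncentred GC and length correction 3 rose, and with the Y-linked covariate 0 fell, Hey1 being the 1 lost. For the 70 pathway genes, leaving out 1 library gave 14 to 23 higher and 4 to 9 lower, the 1.5-fold threshold 3 and 0, the uncentred correction 9 and 19, and the Y-linked covariate 14 and 3, while 14 fell without both replicates 1. Marker genes lower numbered 13 by limma-voom, 12 with the 1.5-fold threshold, and 13 to 21 when 1 library was left out, against 20. The causes were not tested. Signs turned only for genes that were not called in the fit reported above. Notch4 was 0.12 (replicate block with centred GC and length correction), 0.11 (centred correction) and 0.16 (Y-linked covariate), and -0.23 to 0.010 when 1 library was left out. Dll1 was -0.19 (uncentred) and -0.061 (Y-linked), and -0.026 to 0.16 with 1 library out. Dll4 was -0.011 and Hes1 -0.14 with the uncentred correction, and Hes1 -0.0099 with the Y-linked covariate. Dtx3 was -0.11 uncentred, and Aph1a -0.25 to 0.043 with 1 library out. Hey2 was 0.36 with the Y-linked covariate and -0.35 to 0.093 with 1 library out. Heyl was 0.044 with library size only, 0.0066 with upper quartile scaling, 0.0018 with the 1 CPM filter, 0.37 with the Y-linked covariate and -0.20 to 0.21 with 1 library out. Aes was 0.0019 by DESeq2, 0.067 with library size only, 0.032 with upper quartile scaling, 0.028 with the 1 CPM filter, 0.0021 by limma-voom, 0.00011 with the replicate block, 0.036 with that block and the centred correction, 0.036 with the centred correction, 0.098 with the Y-linked covariate, 0.0048 with halved counts and -0.067 to 0.028 with 1 library out. The log2 difference in the Dll4 to endothelium ratio was -0.042 to 0.096 with 1 library out. Replicate numbers do not pair the libraries by the labels, and deviations of same-numbered libraries correlated at 0.0808, 0.0824 and 0.0199; control replicate 3 correlated best with mutant replicate 2. With the replicate block 5 of the 10 genes rose, 1 fell, and 17 and 8 of the pathway genes rose and fell; of the named genes Maml2, Ep300 and Dlk1 (adjusted p = 0.0508) lost their calls. Depth limits the low genes, Hes5 and Dll3 above all.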
